A study of Arabidopsis thaliana with 8 samples.

Results

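The Calvin cycle and photorespiration enzymes were followed in rosette leaves of *Arabidopsis thaliana*, as 40 nuclear genes listed by locus, of 24492 loci in the deposited table. The first 24 loci encode the Calvin cycle with the Rubisco small subunits (*RBCS*), Rubisco activase (*RCA*) and the CP12 proteins, and the last 16 encode photorespiration with the reassimilation of its ammonium. All 40 loci had values and all 40 passed the minimum of a mean of 0.1 FPKM over the libraries. FPKM, the number of fragments scaled to transcript length and to the fragments mapped, is a level per transcript length. The study compared 3 RNA-seq libraries of the *kaku4* mutant with 3 of wild-type plants (WT, labelled col), all from leaves 6 weeks old and with no other treatment named. The labels give the mutant genotype as kaku4-2. The study's methods describe a homozygous SALK T-DNA insertion line, and also CRISPR/Cas9 mutants of the gene and lines complemented with *KAKU4*. The study reports early leaf senescence in the CRISPR/Cas9 mutants too. In complemented lines it reports rescue of the phenotype and of most transcripts measured by qRT-PCR. The libraries here are of a single mutant genotype. In them any change carried by that line along with the insertion cannot be told apart from the insertion itself. KAKU4 is a protein of the plant nuclear lamina, at the inner face of the nuclear envelope. The study asked which genes differ in *kaku4* leaves during senescence.

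In the Calvin cycle, Rubisco in the chloroplast stroma adds CO2 to ribulose bisphosphate, the product is reduced to triose phosphate with ATP and NADPH from the light reactions, and most of the triose phosphate is used to rebuild the acceptor. Rubisco also accepts oxygen, and the phosphoglycolate then made is salvaged by photorespiration, which runs through chloroplast, peroxisome and mitochondrion and releases CO2 and ammonium at the glycine decarboxylase step. Leaf senescence is known for the breakdown of chloroplast proteins, Rubisco foremost, and for the export of their nitrogen.

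The labels were first checked against the target gene. *KAKU4* (AT4G31430) was at 6.41, 5.45 and 5.71 FPKM in WT and 0.739, 1.26 and 0.943 FPKM in *kaku4*, which left 16.8% of the WT mean. Leaf mesophyll markers were abundant in all libraries, with *LHB1B2* at 27124 FPKM in WT and 23171 FPKM in *kaku4* on average. None of the 6 passed the test, but all *kaku4* libraries were below all WT libraries for *LHCB2.1*, *LHCB3*, *LHCA3* and *CAB3*, at 74%, 65.4%, 83.1% and 57.2% of the WT mean, and *CAB1* was listed at 0 in 5 libraries and at 40368 FPKM in *kaku4* replicate 2. Of 4 root markers, 1 had no value, *SHV2* and *MYB36* were under 0.1 FPKM in both genotypes, and *GL2*, which is also a leaf hair gene, was at 1.57 FPKM in WT and 4.71 FPKM in *kaku4*. The 6 senescing leaf markers all rose, and their summed level was 96.6, 101 and 104 FPKM in WT and 249, 256 and 263 FPKM in *kaku4*. The cysteine protease gene *SAG12* rose from 19 to 109 FPKM. Summed phloem markers were at 199 to 232 FPKM in WT and 151 to 158 in *kaku4*, summed flower markers at 2.66 to 3.58 and 2.1 to 2.58, and summed guard cell markers overlapped. Within these sums markers went both ways, since *PP2-A1* fell (-1.11 on the log2 scale) and *SUC2* rose (0.78) among the phloem markers, and *AP1*, *AG* and *SEP3* fell and *LAP6* rose (0.71) among the flower markers. The part of senescence stage or of these cell types in the results was not tested, and in these bulk leaves fewer cells of a type and less RNA per cell cannot be told apart. Replicate 1 of both genotypes held more chloroplast-encoded transcripts than the others, 44363 and 30587 FPKM in sum against 499 to 945 FPKM in the other 4 libraries. Summed FPKM over all loci was 1412227 to 1559944 in WT and 953041 to 1188694 in *kaku4*.

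Across the 40 genes, levels changed in both directions within the same pathway. A gene was called when its log2 fold change, on log2(FPKM + 0.1), was at least 1 in size with an adjusted p of at most 0.05 in limma, and it was said to rise or fall when it passed that adjusted p at any fold. Only transcripts were measured here, so each rise or fall is one of transcript and not of protein. Called higher in *kaku4* were 5 members, 12.5% of the 40, where 16.4% of the 20618 genes tested were called higher. Called lower were 4 members, 10% of the 40, beside 11.5% of all genes tested, so that 22.5% of the members and 27.9% of all genes were called in either direction. At any fold 15 members rose, 37.5% of them against 28.6% of all genes, and 9 fell, 22.5% against 28.3%, which makes 60% of the members and 57% of all genes. The 3 *kaku4* libraries lay above all 3 WT libraries for 19 members and below them for 11, and such separation was found upward for 33.5% and downward for 31.3% of all genes tested, 64.7% together. Calls at the fold threshold were thus no more frequent among the members than among all genes. The median log2 fold change was 0.17 over the members and 0.00 over all genes tested.

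Of 16 photorespiration genes 10 rose and 4 fell, whereas of 24 Calvin cycle genes 5 rose, 5 fell and 14 did not pass the test. The median log2 fold change was 0.54 for photorespiration and -0.09 for the Calvin cycle, and no test of that difference was made. With the length trend removed these medians were 0.19 and 0.081. Then 7 of 16 photorespiration genes rose and 3 fell, and 7 of 24 Calvin cycle genes rose and 4 fell. Of all genes 20.2% rose and 20% fell at that setting. The split between higher and lower depended on how the libraries were scaled. With FPKM rescaled to the same sum over nuclear genes, which raised the median of all genes to 0.48, 13 members were called higher, the lowest member was *EMB3119* at -0.76, 25 rose and 5 fell at any fold (42% and 10.8% of all genes), and 93.7% of all calls were upward in place of 58.8%. With each library centred on its median, which lowered the median of all genes to -0.19, 3 members were called higher and 5 lower, and 37.4% of all calls were upward. Over all genes, 6201 were called higher and 416 lower at equal nuclear totals, and 2302 and 3846 when centred. Either scaling shifted the members together and so left the differences between them almost as they were.

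The *kaku4* libraries were not equally far from WT. For 22 of the 24 members that passed the test *kaku4* replicate 2 was the library farthest from WT, as it was for 72.2% of the 11749 genes of the transcriptome that passed, and *kaku4* replicate 1 was the nearest for 18. The median coefficient of variation over the members was 11.7% in *kaku4* and 6.68% in WT. Without *kaku4* replicate 2, 3 members were called higher and 3 lower, and without *kaku4* replicate 1 these counts were 8 and 4. Calls among all genes moved the same way. They were 3380 higher and 2371 lower with all libraries, 2648 and 1616 without *kaku4* replicate 2, and 3767 and 2994 without *kaku4* replicate 1.

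**Figure D1:**
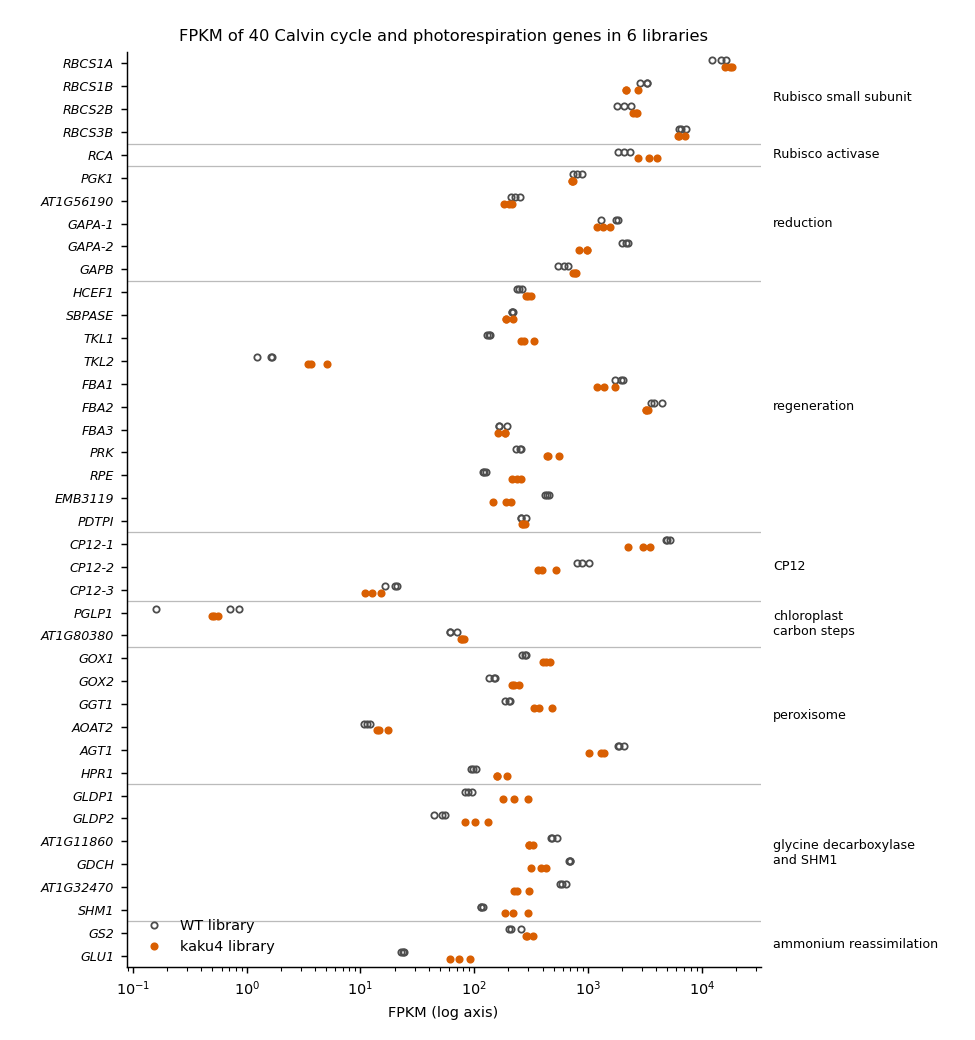
FPKM (log axis) of the 40 genes in each library, grouped by role, with open circles for the 3 WT libraries and filled circles for the 3 *kaku4* libraries. *RBCS1A* was the highest and *PGLP1* the lowest of the 40, and circles of the genotypes separate completely in 30 rows.

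No Rubisco small subunit gene passed the test in the main setting, and *RBCS1A* was the most abundant of the 40 transcripts. *RBCS1A* was at 12434, 14658 and 16452 FPKM in WT and 15971, 18346 and 17697 FPKM in *kaku4*, at rank 9 of all loci by its WT mean. *RBCS3B* was at 6615, 6304 and 7215 FPKM in WT and 7082, 6147 and 6297 FPKM in *kaku4*. Both genes overlapped between the genotypes. *RBCS2B* was at 1816, 2076 and 2373 FPKM in WT and 2712, 2633 and 2475 FPKM in *kaku4*, all *kaku4* libraries being higher, but its log2 fold change of 0.33 ± 0.19 (standard error) did not pass the test (limma adjusted p = 0.167). *RBCS1B* was at 3327, 2864 and 3276 FPKM in WT and 2776, 2140.5 and 2158 FPKM in *kaku4*, all *kaku4* libraries being lower, with a log2 fold change of -0.43 ± 0.20 (adjusted p = 0.0994), and it passed only without *kaku4* replicate 1 among the sets with a library left out, at -0.55. So the copies leaned in opposite directions, and with equal nuclear totals the sign of *RBCS1B* and *RBCS3B* turned, to 0.086 and 0.47. At those totals *RBCS1A* (0.78), *RBCS2B* (0.84) and *RBCS3B* all passed as higher. The *RBCS1A* share of the 4 transcripts was 51.4, 56.6 and 56.1 percent in WT and 56, 62.7 and 61.8 percent in *kaku4*, which overlapped, while that of *RBCS1B* fell outside its WT range, from 13.8, 11.1 and 11.2 percent to 9.73, 7.31 and 7.54 percent. Summed, the 4 transcripts gave 24193, 25902 and 29316 FPKM in WT and 28541, 29266 and 28627 FPKM in *kaku4*, which overlapped.

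*RBCS1A* lies alone on chromosome 1, and the other copies stand in tandem on chromosome 5, where their coding sequences were 94.1% to 97.3% identical. *RBCS1B* and *RBCS3B* shared an unbroken run of 230 bases, longer than a 150-base read, so the split between tandem copies is uncertain while their sum is less so. The stretch printed here, coding positions 91 to 150 of each gene on its own strand (RefSeq, TAIR10.1), shows bases at which the copies can be told apart. Capitals mark the 11 positions at which the 4 sequences differ, of which 8 differ among the tandem copies.
RBCS1A (chr1:25049100-25049159, minus strand): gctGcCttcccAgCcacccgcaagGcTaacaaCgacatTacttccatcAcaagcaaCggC
RBCS1B (chr5:15385006-15385065, minus strand): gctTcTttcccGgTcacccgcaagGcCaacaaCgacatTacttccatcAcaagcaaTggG
RBCS2B (chr5:15381829-15381888, minus strand): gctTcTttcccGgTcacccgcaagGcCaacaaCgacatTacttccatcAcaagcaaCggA
RBCS3B (chr5:15378157-15378216, minus strand): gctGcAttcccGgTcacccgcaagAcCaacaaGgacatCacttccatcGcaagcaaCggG

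Rubisco activase, which frees the Rubisco active site of tight-binding sugar phosphates, rose. *RCA* was at 1822, 2071 and 2326 FPKM in WT and 2739, 4017 and 3414 FPKM in *kaku4*, with no overlap. Its log2 fold change was 0.70 ± 0.22 (limma adjusted p = 0.0239), and per 100 small subunit transcripts it moved from 7.53, 8.0 and 7.93 to 9.6, 13.7 and 11.9. The call at any fold was lost in 6 of the 17 alternatives, among them those without WT replicate 1 (0.61), WT replicate 2 (0.70), *kaku4* replicate 2 (0.57) and *kaku4* replicate 3 (0.69).

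In the reduction steps a single gene moved. *GAPA-2*, an A subunit of the chloroplast glyceraldehyde phosphate dehydrogenase that uses NADPH, fell from 1980.5, 2164 and 2248 FPKM in WT to 979, 835 and 982 FPKM in *kaku4*, 43.7% of the WT mean. On the log2 scale it moved by -1.20 ± 0.17 (limma adjusted p = 0.000761). *GAPA-1*, for the other A subunit, was at 1625 ± 288 FPKM (SD, n = 3) in WT and 1362 ± 180.5 in *kaku4* and overlapped, and *GAPB*, for the B subunit, was at 609 ± 60.6 FPKM in WT and 764 ± 24.5 in *kaku4*. The B subunit gene differed in sign from both A subunit genes, but its estimate of 0.33 ± 0.15 did not pass the test. The ratio of *GAPA* to *GAPB* transcripts was 6.0, 6.37 and 6.12 in WT and 2.95, 2.8 and 3.26 in *kaku4*, and that of *GAPA-2* to *GAPA-1* was 1.53, 1.24 and 1.23 in WT and 0.824, 0.618 and 0.634 in *kaku4*. Neither ratio overlapped, and a ratio within a library does not depend on how that library is scaled. The transcripts are of similar length, 1752, 1567 and 1854 nucleotides, and with the length trend removed *GAPA-2* stayed lower by nearly as much, at -1.06. The phosphoglycerate kinase genes *PGK1* and *AT1G56190* overlapped, at 90.9% and 86.8% of their WT means.

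In the regeneration of the acceptor 4 genes rose, 1 fell and 6 did not pass the test. Phosphoribulokinase (*PRK*), which makes ribulose bisphosphate, rose from 248 ± 12.4 FPKM (SD, n = 3) to 481 ± 65.1 (log2 fold change 0.95 ± 0.14). Ribulose phosphate epimerase (*RPE*), at the step before it, rose from 123 ± 4.03 FPKM to 236 ± 20.8 (log2 fold change 0.94 ± 0.12, limma adjusted p = 0.00106 and 0.000626). Ribose phosphate isomerase works beside the epimerase, and its gene *EMB3119* (AT3G04790) went the other way. It was at 436, 423 and 451 FPKM in WT and 213, 145 and 189.7 FPKM in *kaku4* (log2 fold change -1.28 ± 0.16, adjusted p = 0.000589). Its transcript is short, 992 nucleotides, and with the length trend removed it was at -0.60, under the fold threshold, while *PRK* was at 0.82 and *RPE* at 1.12. Each of these 3 genes passed the test with the same sign in all 17 alternatives. *EMB3119* shares 235 nucleotides with an antisense gene, AT3G01505, and since the use of strand in the counting is not stated, reads from the pair cannot be told apart.

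Transketolase, which moves carbon units between the sugar phosphates, was called higher in both of its genes. *TKL1* was at 137, 128 and 134 FPKM in WT and 255, 337 and 274 FPKM in *kaku4* (log2 fold change 1.11 ± 0.14, limma adjusted p = 0.00057). *TKL2* was at 1.24, 1.63 and 1.68 FPKM in WT and 3.46, 5.13 and 3.65 FPKM in *kaku4* (log2 fold change 1.36 ± 0.22, adjusted p = 0.00143). The minor gene stayed minor, at 0.903, 1.27 and 1.25 percent of *TKL1* in WT and 1.35, 1.52 and 1.33 percent in *kaku4*. Both transcripts are long, 3196 and 3328 nucleotides, and with the length trend removed their estimates shrank to 0.22 and 0.43 and no longer passed the test. Without *kaku4* replicate 2, *TKL1* was under the fold threshold, at 0.99.

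The remaining regeneration genes did not pass the test. The bisphosphatases were at 119.8% of the WT mean for *HCEF1*, the chloroplast fructose bisphosphatase, and 91.8% for *SBPASE*, the sedoheptulose bisphosphatase. The plastid aldolases *FBA1*, *FBA2* and *FBA3* were at 75.6%, 83.1% and 102%, and the plastid triose phosphate isomerase *PDTPI* was at 101%. All *kaku4* libraries were higher for *HCEF1* and all were lower for *FBA2*. Without *kaku4* replicate 1, *FBA1* passed at -0.56. *HCEF1* shares 167 nucleotides with the antisense gene AT3G54060 and *PDTPI* 218 with AT2G21172 on its own strand.

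All 3 *CP12* genes fell, though *CP12-3* turned to 0.24 with the length trend removed. CP12 is a small redox-sensitive protein that binds glyceraldehyde phosphate dehydrogenase and phosphoribulokinase into an inactive complex in the dark. *CP12-2* was called lower, at 1031, 796 and 893 FPKM in WT and 519, 362 and 392 FPKM in *kaku4* (log2 fold change -1.10 ± 0.18, limma adjusted p = 0.00157). *CP12-1*, the most abundant, was at 4932, 4866 and 5263 FPKM in WT and 3500.0, 2252 and 3034 FPKM in *kaku4* (log2 fold change -0.80 ± 0.23, adjusted p = 0.0174). *CP12-3* was at 20, 16.5 and 21.2 FPKM in WT and 15.1, 12.6 and 10.9 FPKM in *kaku4* (log2 fold change -0.58 ± 0.16, adjusted p = 0.0155). No *CP12* gene overlapped between the genotypes. Of the genes for enzymes that CP12 binds, *PRK* moved the other way, *GAPA-2* fell as well (-1.20), and *GAPA-1* and *GAPB* did not pass the test. These are short transcripts of 637 to 913 nucleotides, and with the length trend removed none passed the test, the other estimates being -0.063 for *CP12-1* and -0.22 for *CP12-2*. Of the 3, *CP12-2* alone passed with equal nuclear totals, at -0.59. Under quantile normalization *CP12-1* did not pass, at -0.34. *CP12-3* lost its pass without WT replicate 3 (-0.51) or *kaku4* replicate 3 (-0.47), and *CP12-1* without WT replicate 2, WT replicate 3 or *kaku4* replicate 3 (-0.82, -0.77 and -0.84). *CP12-2* was under the fold threshold without *kaku4* replicate 2, at -0.998.

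**Figure D2:**
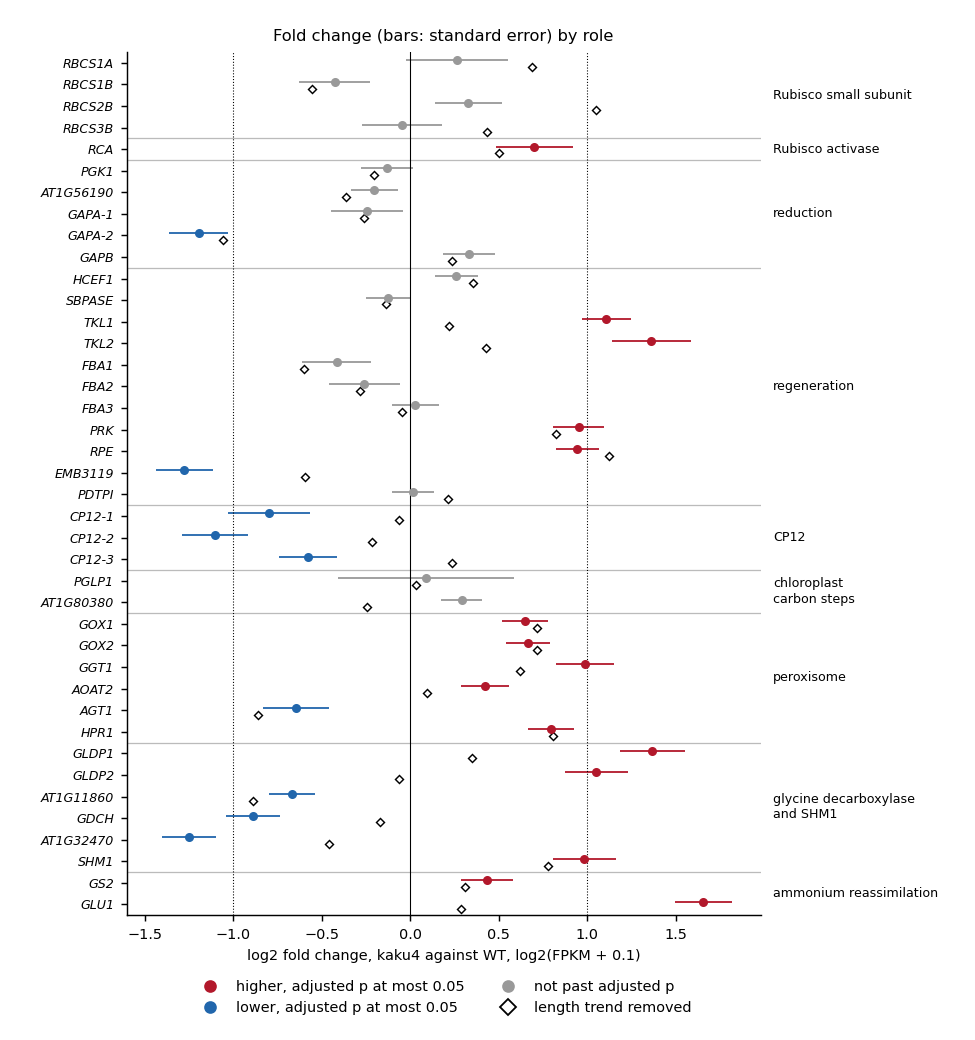
Log2 fold change of *kaku4* against WT on log2(FPKM + 0.1) for each gene, grouped by role, as filled circles with the standard error as bars, and the same after removal of the length trend as open diamonds. *GLU1* was highest at 1.66 and *EMB3119* lowest at -1.28, and dotted lines mark a log2 fold change of 1 in size.

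Of the carbon steps of photorespiration, the first and the last lie in the chloroplast, and neither of their genes passed the test. Phosphoglycolate phosphatase *PGLP1* (AT5G36700) was listed at 0.158, 0.859 and 0.71 FPKM in WT and 0.513, 0.492 and 0.565 FPKM in *kaku4*. Its coding sequence matched that of AT5G36790 over all 1089 bases, and both loci were near the bottom of the scale, so their levels cannot be read as those of the enzyme. The glycerate kinase gene *AT1G80380*, the last step of the salvage, was at 64.3 ± 5.05 FPKM (SD, n = 3) in WT and 78.5 ± 2.95 in *kaku4*, with no overlap and a log2 fold change of 0.29 ± 0.12 (limma adjusted p = 0.0611). It passed without WT replicate 1, at 0.35.

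In the peroxisome 5 of 6 genes rose. The glycolate oxidases *GOX1* and *GOX2*, neighbours on chromosome 3 whose coding sequences were 90.9% identical, rose alike, from 274 ± 10.6 to 429.6 ± 32.2 FPKM and from 144 ± 9.19 to 228 ± 15.7 FPKM (SD, n = 3). Their log2 fold changes were 0.65 ± 0.13 and 0.66 ± 0.12 (limma adjusted p = 0.0033 and 0.00244), and their ratio held between 0.510 and 0.543 over the 6 libraries. The glutamate:glyoxylate aminotransferases *GGT1* and *AOAT2*, which turn glyoxylate into glycine, were at 200.3% and 135% of their WT means. The major gene moved more than the minor, since *AOAT2* per *GGT1* was 0.0579, 0.0565 and 0.0588 in WT and 0.0439, 0.036 and 0.0379 in *kaku4*. Hydroxypyruvate reductase *HPR1*, which acts near the end of the peroxisomal steps, rose to 174% (log2 fold change 0.79 ± 0.13). The exception was *AGT1*, the serine:glyoxylate aminotransferase and by far the most abundant photorespiration transcript, which fell from 1927 ± 125 to 1239 ± 194 FPKM (log2 fold change -0.65 ± 0.18, adjusted p = 0.0165). At equal nuclear totals it no longer passed, at -0.13, nor under quantile normalization, at -0.019. With the length trend removed it stayed lower, at -0.86. The rise of both *GOX* genes no longer passed after removal of a trend with GC content, at 0.27 and 0.26, and *AGT1* lost its pass also without WT replicate 2, WT replicate 3 or *kaku4* replicate 3 (-0.68, -0.59 and -0.69). *AOAT2* was at 0.094 with the length trend removed and did not pass, so that 4 of the 6 genes then rose, and it also lost its pass when centred (0.23), with the GC trend removed (0.19), with replicates 2 and 3 only (0.41), or without WT replicate 1, WT replicate 2 or *kaku4* replicate 2 (0.38, 0.42 and 0.33).

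In the mitochondrial step 3 genes rose and 3 fell. Glycine decarboxylase is built from P, H, T and L proteins, and with serine hydroxymethyltransferase it turns glycine into serine. The P protein genes were called higher, though *GLDP2* turned to -0.063 with the length trend removed. *GLDP1* was at 82.4, 88.6 and 96 FPKM in WT and 181, 295 and 226 FPKM in *kaku4* (log2 fold change 1.37 ± 0.18, limma adjusted p = 0.000688). *GLDP2* was at 43.9, 51.7 and 55.4 FPKM in WT and 83.8, 131 and 102 FPKM in *kaku4* (log2 fold change 1.05 ± 0.18, adjusted p = 0.0017). Both P protein genes separated fully between the genotypes, with *kaku4* replicate 2 highest. The genes of the H protein, which carries the lipoyl arm, fell. *AT1G32470* was at 635, 567 and 597 FPKM in WT and 300.1, 224 and 239 FPKM in *kaku4* (log2 fold change -1.25 ± 0.15, adjusted p = 0.00051). *GDCH* was at 688, 688 and 700.2 FPKM in WT and 428, 318 and 384 FPKM in *kaku4* (log2 fold change -0.89 ± 0.15, adjusted p = 0.00175). In the H protein genes the same *kaku4* replicate 2 was lowest. The T protein gene *AT1G11860* fell from 495 ± 31.3 to 311 ± 15.8 FPKM (SD, n = 3, log2 fold change -0.67 ± 0.13), and *SHM1*, for the hydroxymethyltransferase, rose from 116 ± 3.56 to 234 ± 58 FPKM (log2 fold change 0.98 ± 0.18, adjusted p = 0.00295 and 0.00218).

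Within a library the summed P protein transcripts per summed H protein transcripts, both as FPKM, were at 0.0954, 0.112 and 0.117 in WT and 0.363, 0.786 and 0.526 in *kaku4*. Transcript length bears on this ratio, since the P protein transcripts are 3586 and 3967 nucleotides long and the H protein transcripts 829 and 944. With the length trend removed *GLDP1* stayed higher at 0.35 and *AT1G32470* lower at -0.46, both past the test, whereas *GLDP2* was at -0.063 and *GDCH* at -0.17. Under quantile normalization *GDCH* was at -0.15 and did not pass. *SHM1* and the T protein gene are of nearly the same length, 1989 and 2009 nucleotides. The level of *SHM1* per T protein transcript was 0.247, 0.242 and 0.217 in WT and 0.563, 0.986 and 0.725 in *kaku4*. With the length trend removed both passed the test, at 0.78 and -0.89, while the T protein gene was at -0.16 at equal nuclear totals and 0.045 under quantile normalization and passed in neither. Without *kaku4* replicate 2, *GLDP2* was under the fold threshold at 0.88, as it was without WT replicate 1, at 0.96.

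**Figure D3:**
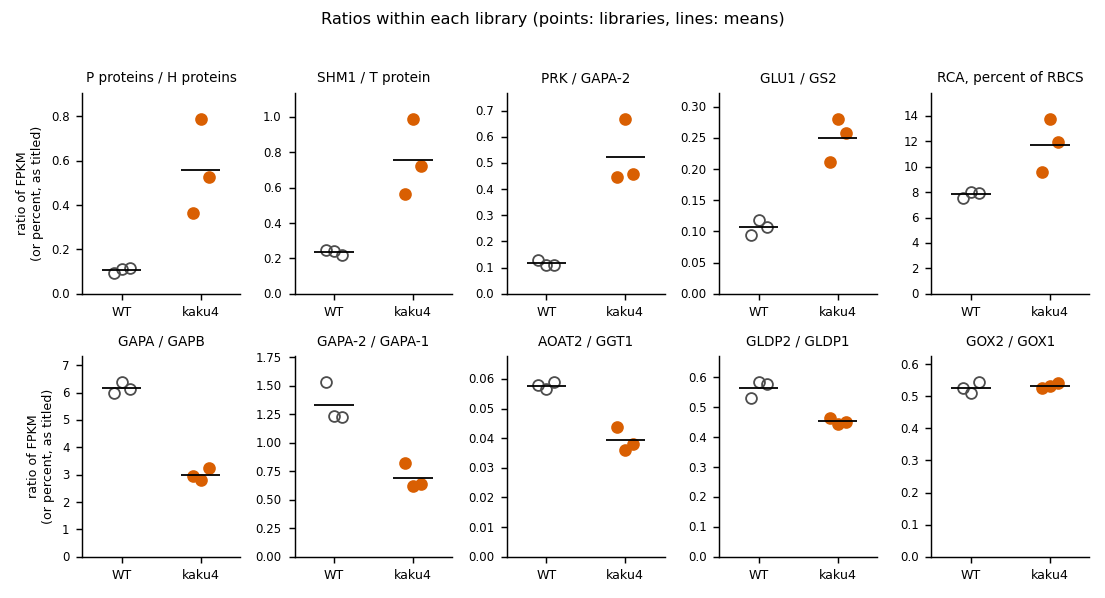
Ratios of FPKM between genes within each library, with open circles for WT, filled circles for *kaku4* and a line at each mean, each axis starting at 0. The ratio of P to H protein transcripts was 0.0954 to 0.117 in WT and 0.363 to 0.786 in *kaku4*, whereas *GOX2* per *GOX1* overlapped.

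Ammonium released from glycine is recovered by glutamine synthetase and ferredoxin-dependent glutamate synthase in the chloroplast, and both rose. *GLU1*, the glutamate synthase, had the largest change of the 40, at 24.3, 23.7 and 22.8 FPKM in WT and 61.2, 92.5 and 73.2 FPKM in *kaku4* (log2 fold change 1.66 ± 0.16, limma adjusted p = 0.000243). *GS2*, the plastid glutamine synthetase, rose from 224 ± 31.6 to 301 ± 25.5 FPKM (SD, n = 3, log2 fold change 0.43 ± 0.15, adjusted p = 0.034). The ratio of *GLU1* to *GS2* was 0.0936, 0.118 and 0.107 in WT and 0.211, 0.28 and 0.258 in *kaku4*. *GLU1* has the longest transcript of the 40, 5417 nucleotides, and with the length trend removed its change was 0.29, still past the test but no larger than that of *GS2* at 0.31, which did not pass. *GS2* was at 0.068 with the GC trend removed and 0.24 when centred, and passed in neither, nor with eBayes without the trend. It lost its pass also without WT replicate 2, WT replicate 3, *kaku4* replicate 2 or *kaku4* replicate 3, at 0.36, 0.40, 0.36 and 0.47. *GLU1* shares 79 nucleotides with the antisense gene AT5G04150.

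The fold changes of the members followed transcript length, as those of the transcriptome did. Spearman's correlation of log2 fold change with the length of the longest RefSeq transcript was 0.60 over the 40 members and 0.59 over 20464 genes with a length, given here as a description across genes of the same 6 libraries. The median log2 fold change of all tested genes was -0.64 under 1500 nucleotides, 0.00 from 1500 to 2010 nucleotides (5071 genes) and 0.73 above, the upper edge being the length of the T protein transcript rounded up. Of 8 members over 2010 nucleotides 7 rose and none fell, and of 9 under 1500 nucleotides 6 fell and none rose. The 23 members in the middle window ran from -1.20 for *GAPA-2* to 0.98 for *SHM1*, with 8 that rose (*RCA*, *PRK*, *RPE*, *GOX1*, *GOX2*, *SHM1*, *HPR1* and *GS2*) and 3 that fell (*GAPA-2*, *AGT1* and *AT1G11860*). The shares of all genes that rose or fell within each window were not counted. The member counts by window therefore have no background of genes of like length and are description only. With the length trend removed in each library 14 members rose, beside 20.2% of all genes, and 7 fell, beside 20% of all genes. The small subunit genes *RBCS1A*, *RBCS2B* and *RBCS3B* were then among those that rose, at 0.69, 1.05 and 0.43, and *RBCS1B* and *FBA1* among those that fell, at -0.56 and -0.60. The annotated transcripts used for this were 1268, 935 and 1210 nucleotides long for the first 3 and 1894 for *RBCS1B*. Their coding sequences are of 543 to 561 bases. The part of these annotated lengths in the split between the copies was not tested. The part of RNA quality or library preparation in the length trend was not tested.

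**Figure D4:**
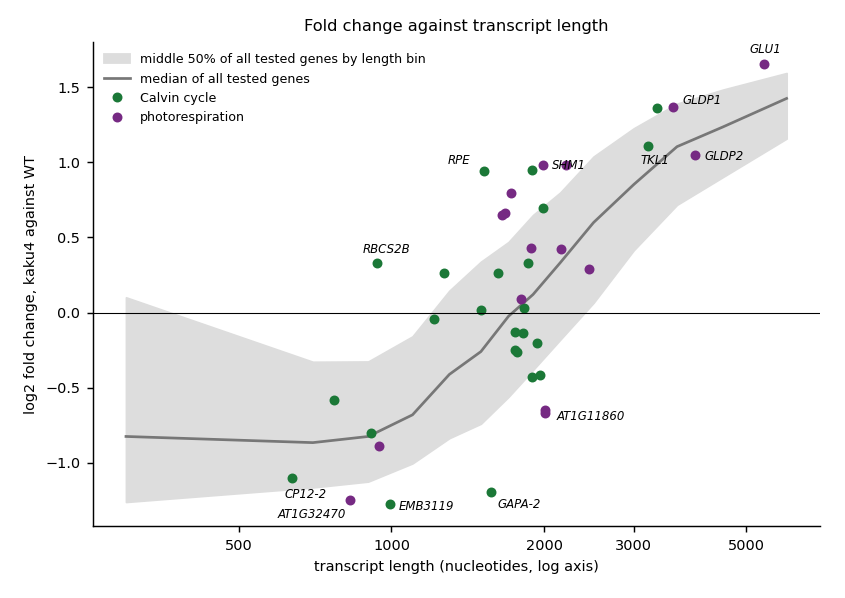
Log2 fold change against transcript length (nucleotides, log axis) for the 24 Calvin cycle and 16 photorespiration genes, over the median (line) and quartiles (band) of the genes tested in each length bin. *GAPA-2*, *AT1G11860*, *RPE* and *SHM1* lie outside the band for their length, whereas *GLDP2* and *CP12-2* lie within it.

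Over all 17 alternatives, 7 members rose in every case (*PRK*, *RPE*, *GGT1*, *SHM1*, *HPR1*, *GLDP1* and *GLU1*) and 3 fell in every case (*GAPA-2*, *EMB3119* and *AT1G32470*). *TKL1*, *TKL2*, *GLDP2* and *CP12-2* failed the adjusted p in a single alternative each, the removal of the length trend. With a library left out, *PRK*, *RPE*, *GGT1* and *SHM1* crossed the fold threshold in some cases, *PRK* without *kaku4* replicate 1 (1.01), *RPE* without *kaku4* replicate 3 (1.01), *GGT1* without WT replicate 3 or *kaku4* replicate 1 or 3 (at most 1.10) and *SHM1* without WT replicate 1 or *kaku4* replicate 1 or 3 (at most 1.14). Summed over the 40 genes, levels were 49105, 51295 and 57336 FPKM in WT and 50869, 50934 and 50748 FPKM in *kaku4*, which overlapped. As a share of the summed FPKM of nuclear genes the members took 3.24, 3.63 and 3.77 percent in WT and 4.39, 5.35 and 5.02 percent in *kaku4*, with no overlap, since the nuclear sum itself was lower in *kaku4*. Photorespiration transcripts per 100 Calvin cycle transcripts, both as summed FPKM, were at 11.4, 10.3 and 9.99 in WT and 9.67, 9.7 and 9.41 in *kaku4*, all *kaku4* values being the lower. Abundant genes weigh most in such sums. *AGT1*, which fell, gave 1879, 1833 and 2068 of 5012, 4804 and 5208 photorespiration FPKM in WT. In *kaku4* it gave 1396, 1023 and 1298 of 4486, 4503 and 4365 FPKM. By number, 10 of the 16 photorespiration genes rose and 4 fell.

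**Figure D5:**
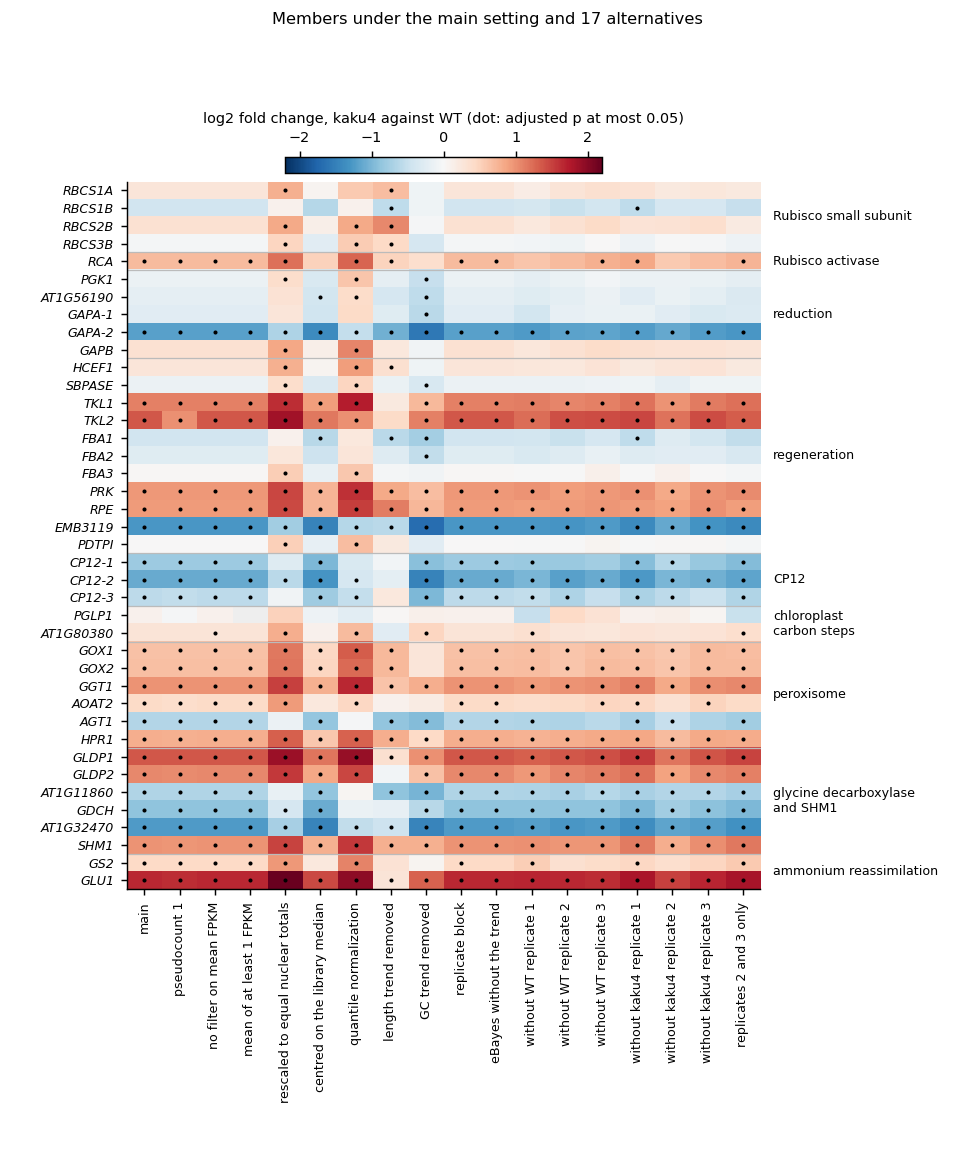
Log2 fold change of each member (colour, red for higher in *kaku4*) under the main setting and each of 17 alternatives, with a dot where the adjusted p was at most 0.05. The rows of *PRK*, *RPE*, *GGT1*, *HPR1*, *SHM1*, *GLDP1* and *GLU1* are red with a dot throughout, those of *GAPA-2*, *EMB3119* and *AT1G32470* blue with a dot throughout, and the columns for equal nuclear totals and quantile normalization are shifted to red.

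Genes that work beside the cycle were read from a list of 19, of which 5 rose and 8 fell. Of all genes tested 28.6% rose and 28.3% fell. Of the chaperonin subunits that fold the Rubisco large subunit, *CPN60B* at 1.10 and *Cpn60beta2* at 1.01 on the log2 scale were called higher, while the assembly chaperones *RbcX1* and *RbcX2* were called lower, at -1.27 and -1.02. Also called lower was *AT3G47650*, annotated as a DnaJ-type cysteine-rich protein, at -1.22. The largest fall was that of *AT2G04700*, the catalytic chain of ferredoxin-thioredoxin reductase, at -1.36, from 372 to 146 FPKM. Through thioredoxin this reductase passes electrons from the light reactions to *PRK*, the bisphosphatases, glyceraldehyde phosphate dehydrogenase and CP12. With the length trend removed it was at -0.96, *RbcX2* at -0.73, *CPN60B* at 0.61, *Cpn60beta2* at 0.55 and *AT3G47650* at -0.48, and *RbcX1* was at -0.43 and no longer passed.

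Of 21 further photorespiration genes 9 rose and 5 fell, beside 28.6% and 28.3% of all genes tested. Called higher were *GLU2* (1.93), the minor glutamate synthase, *mtLPD2* (1.25), which encodes an L protein of glycine decarboxylase, *CAT2* (1.15), the catalase that removes the peroxide made by glycolate oxidase, and *GOX3* (1.07). *GLU2* and *GOX3* were low, at means of 1.72 and 0.867 FPKM in WT and 6.92 and 1.91 FPKM in *kaku4*. Called lower was *AT2G35120* (-1.05), a further H protein gene. The L protein gene *mtLPD1* rose as well. In the main setting the P and L protein genes thus rose and all 3 H protein genes fell. With the length trend removed *GLU2* was at 0.52, *GOX3* at 1.09, *mtLPD2* at 0.89 and *CAT2* at 0.53. *AT2G35120* was then at -0.29 and *mtLPD1* turned to -0.16, and neither passed the test. Of the P, L and H protein genes only *GLDP1*, *mtLPD2* and *AT1G32470* then passed.

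Of 12 genes for cytosolic or non-photorespiratory counterparts 7 rose and 1 fell, beside 28.6% and 28.3% of all genes tested. The cytosolic glutamine synthetase gene named *GSR 1* in RefSeq (AT5G37600) was at 42.8, 50 and 54.3 FPKM in WT and 175, 210.3 and 201 FPKM in *kaku4* (log2 fold change 1.99 ± 0.14, limma adjusted p = 6.91e-05). The more abundant cytosolic gene *GSR2* (AT1G66200) overlapped, at 276 FPKM in WT and 279 in *kaku4* on average (0.024), and *GLN1;4* rose by 0.53. Cytosolic glutamine synthetase is known for the reassimilation of ammonium in senescing leaves. The change of *GSR 1* kept its size when the length trend was removed, at 2.12, unlike that of the NADH-dependent glutamate synthase *GLT1*, at 1.75 before and 0.15 after. The cytosolic aldolase *FBA8* was called higher at 1.17 whereas no plastid aldolase passed the test, and the fall was that of the cytosolic bisphosphatase *FBP*, at -0.43. At equal nuclear totals *FBP* was at 0.08 and did not pass. Whether plastid and cytosolic aldolases differed was not tested.

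Promoter windows from 250 bases before to 50 after the annotated start of each gene were searched on both strands for the G-box CACGTG, bound by bZIP and bHLH factors, and for the I-box GATAAG, both known from light-regulated promoters such as those of *RBCS* genes. The G-box was in 8 of 40 member windows (20.0%) and in 6.46% of 37897 windows of annotated genes, and the I-box in 9 (22.5%) and in 15.1%. A match is a description of letters and not of binding, and the motifs can share at most 1 base. The windows of 7 genes show where the G-box lies in genes that moved differently, since *TKL2*, *PRK*, *AOAT2* and *GLDP1* rose, *CP12-1* fell, and *RBCS2B* and *HCEF1* did not pass the test. The G-box, in capitals, is shown for these 7 with its surrounding bases on the strand of the gene (RefSeq, TAIR10.1).
RBCS2B (chr5:15382177-15382206, minus strand): ggagttttctgcCACGTGatcttatcctag
HCEF1 (chr3:20016803-20016832, plus strand): taagagcaaagcCACGTGtcataacacaag
TKL2 (chr2:18672247-18672276, plus strand): aCACGTGctatgcaacgtgggatgttgaga
PRK (chr1:11532014-11532043, plus strand): attagaatctccCACGTGtcaattcaaata
CP12-1 (chr2:19446740-19446769, plus strand): aaaatctaagtaCACGTGgcaaaatatgct
AOAT2 (chr1:26612211-26612240, plus strand): tgtctagtgaatCACGTGtacagagtctga
GLDP1 (chr4:15931438-15931467, minus strand): ttagatgcgataCACGTGgaatctgcaact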

How the data were processed

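RNA was measured in 3 WT and 3 *kaku4* libraries of 6-week-old rosette leaves, grouped by their sample labels. Per the study's methods the authors aligned 150-base paired reads to TAIR10 with TopHat2 v2.0.9 and computed FPKM with Cufflinks, both at default parameters. The deposited table holds these FPKM values for 24492 loci, of which 1442 carry a missing mark in every library and were left out. Because of these marks the columns were recorded under the general unit "other", although the deposited values are FPKM. The table gives no counts from which the depth behind a value could be read, so the error of each value comes from the spread among 3 libraries, which the study's methods call biological replicates. The count-based test of the study's methods was replaced by limma. The 2 H3K27me3 ChIP samples were not analysed here.

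Log2(FPKM + 0.1) was fitted for 20618 genes (mean over libraries 0.1 FPKM or more) with limma 3.58.1 in R 4.3.3 (eBayes with trend, no covariates), and p-values were adjusted by Benjamini-Hochberg over all genes tested. Fold changes on this scale understate those of low genes. An exact permutation test of 3 against 3 libraries cannot go below a two-sided p of 0.1 and was not used. The script was tested on simulated data. The 17 alternatives changed the pseudocount, the filter, the scaling, a trend with length or GC content (lowess, span 0.4), the replicate block, the variance trend or the libraries. Lengths, overlaps and sequences came from RefSeq (TAIR10.1), matched by locus. Values in every library are given for the called members, the 5 largest rises and falls, *RBCS*, *RCA* and *CP12*. Members and lists were chosen with earlier results of these data known. The transcript ratios of P to H proteins, *SHM1* to T protein, *GAPA-2* to *GAPA-1* and *GLU1* to *GS2*, the length windows and the coding-sequence identities were added after seeing the data. The sequence of 1 promoter window is not reported here.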

Additional observations from a re-analysis of the deposited data

How the results depend on the processing

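The counts and signs of the members depended on scaling and on the trends with GC content and transcript length, and the precision rests on 3 libraries per genotype with no counts behind the FPKM values. Calls among all genes, 3380 higher and 2371 lower, became 6201 and 416 at equal nuclear totals, 3846 lower when centred on the library median, 1743 higher with a pseudocount of 1, and 1602 and 1075 with the length trend removed. Under quantile normalization they were 2533 and 2060, and the median log2 fold change of all genes was -0.039. The median of all genes thus did not share the upward shift of the members under that setting. The members with the lowest WT means did not share it either. *TKL2* went from 1.36 to 1.01, *AOAT2* from 0.42 to 0.45, *CP12-3* from -0.58 to -0.53 and *PGLP1* from 0.089 to -0.24. Whether other genes as abundant as the remaining members shifted alike was not tested. Members called, 5 higher and 4 lower, became 13 and 0 at equal nuclear totals, 15 and 0 under quantile normalization, 3 higher when centred or with the GC trend removed, 2 and 1 with the length trend removed, and 8 higher with replicates 2 and 3 only. Under the fits that left out a single library they ran from 3 to 8 higher, beside 2648 to 3767 of all genes. Members past the adjusted p, 15 higher and 9 lower, became 25 and 5 under both equal nuclear totals and quantile normalization, and 15 fell with the GC trend removed. The 0 calls lower are limma calls at the fold threshold, and 5 members fell at any fold under either scaling.

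The median log2 fold change of the 40 members, 0.17, was 0.66 at equal nuclear totals, 0.60 under quantile normalization, -0.022 when centred, -0.080 with the GC trend removed, 0.26 for genes of at least 1 FPKM, 0.082 with replicates 2 and 3 only, and from 0.072 to 0.28 with a library left out. For the Calvin cycle, -0.09, it was 0.43, 0.57, -0.28 and -0.30 in the first 4 of these settings and 0.081 with the length trend removed. For photorespiration, 0.54, it was 1.05, 1.17, 0.34, 0.26 and 0.19 in the same order.

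Of the single genes, the sign turned at equal nuclear totals for *RBCS1B* (0.086), *RBCS3B* (0.47), *PGK1* (0.38), *AT1G56190* (0.31), *GAPA-1* (0.27), *SBPASE* (0.39), *FBA1* (0.097) and *FBA2* (0.25), and under quantile normalization for *RBCS1B* (0.087), *RBCS3B* (0.57), *PGK1* (0.61), *AT1G56190* (0.40), *GAPA-1* (0.42), *SBPASE* (0.48), *FBA1* (0.24), *FBA2* (0.26), *PGLP1* (-0.24) and *AT1G11860* (0.045). It turned with the GC trend removed for *RBCS1A* (-0.10), *RBCS2B* (-0.020), *GAPB* (-0.071), *HCEF1* (-0.099), *FBA3* (-0.069) and *PDTPI* (-0.25), with the length trend removed for *RBCS3B* (0.43), *FBA3* (-0.048), *CP12-3* (0.24), *GLDP2* (-0.063) and *AT1G80380* (-0.24), and when centred for *FBA3* (-0.17), *PDTPI* (-0.18) and *PGLP1* (-0.11). A pseudocount of 1 turned *PGLP1* (-0.020), and replicates 2 and 3 only turned *FBA3* (-0.049), *PDTPI* (-0.037) and *PGLP1* (-0.49). With a library left out *FBA3* ran from -0.013 to 0.11, *PDTPI* from -0.013 to 0.061, *PGLP1* from -0.50 to 0.45 and *RBCS3B* from -0.11 to 0.009. Among these only *AT1G11860*, *CP12-3* and *GLDP2* passed the test in the main setting. The cause of these turns was not tested, beyond the rescaling to equal nuclear totals, which shifts all genes.

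Replicate numbers are shared by the genotypes, but deviations of same-numbered libraries correlated at 0.305, 0.082 and 0.006 (Pearson's r across genes), so the numbers were not taken to pair the libraries. Pairs with unlike numbers ran from -0.225 to 0.214. The libraries numbered 1 thus deviated most alike, and they also held the most chloroplast-encoded transcripts. What these libraries share was not tested. With a replicate block 3410 genes were called higher and 2481 lower, and the members called stayed at 5 and 4.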
